A study of Mus musculus with 18 samples.

Results

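SIRP receptors, their ligand CD47 and the phosphatase SHP-1 were described in 3 populations of mouse spleen cells on Affymetrix U74 version 2 arrays. The genes are Sirpb1a, Sirpa, Cd47 and Ptpn6, which encodes SHP-1, and they were represented by every probe set that the platform annotation pairs with 1 of these symbols. This gave 7 of 36701 probe sets, 6 on array type U74A, 0 on U74B and 1 on U74C. The tested populations were interferon-producing killer dendritic cells (IKDC), which carry features of natural killer (NK) cells, and plasmacytoid dendritic cells (PDC), known as a source of type I interferon. Conventional dendritic cells (cDC), the antigen-presenting type, served as the control in the submitters' design. Each population had 2 separately prepared samples, and each sample was hybridised to the 3 array types, which makes 18 arrays. Strain, age, treatment and the way the cells were sorted are not given in the sources used here, nor whether the 2 biological samples of a population came from separate animals, so the spread between them may be technical. The 4 genes were chosen with their signals in these samples known. Their levels and differences are therefore given as a description, with no test.

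SIRP receptors are paired membrane receptors of the immunoglobulin superfamily. SIRP alpha, encoded by Sirpa, carries inhibitory tyrosine motifs in its cytoplasmic tail. When it binds CD47, a surface protein found on most cells, Src family kinases phosphorylate these motifs and the tail recruits the phosphatases SHP-1 and SHP-2, which restrain phagocytosis of the CD47-bearing cell. SIRP beta 1 proteins such as the product of Sirpb1a lack such a tail and signal through the activating adaptor DAP12, which Tyrobp encodes. In mouse spleen, SIRP alpha is known on macrophages and on the CD8-negative subset of conventional dendritic cells, and SHP-1 is known in haematopoietic cells in general.

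The sequences before the transcription starts are shown because the genes ranged from a signal well above background in cDC alone, for Sirpb1a, to high signals in every sample, for Cd47. Each is the 250 bases before a RefSeq start on GRCm38.p6, 5′ to 3′ on the gene's strand, with every CG dinucleotide in capitals.
Sirpb1a, chr3:15426428-15426677, minus strand: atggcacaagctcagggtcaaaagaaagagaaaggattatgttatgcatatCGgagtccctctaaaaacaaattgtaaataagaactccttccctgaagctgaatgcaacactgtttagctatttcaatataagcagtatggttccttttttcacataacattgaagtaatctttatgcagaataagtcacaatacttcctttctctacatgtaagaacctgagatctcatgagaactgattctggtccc
Ptpn6, chr6:124738710-124738959, minus strand: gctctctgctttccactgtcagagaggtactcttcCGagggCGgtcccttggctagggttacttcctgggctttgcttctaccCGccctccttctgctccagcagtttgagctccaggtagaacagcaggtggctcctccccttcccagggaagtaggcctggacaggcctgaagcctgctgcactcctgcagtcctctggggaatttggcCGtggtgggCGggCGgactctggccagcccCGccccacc
Cd47, chr16:49855404-49855653, plus strand: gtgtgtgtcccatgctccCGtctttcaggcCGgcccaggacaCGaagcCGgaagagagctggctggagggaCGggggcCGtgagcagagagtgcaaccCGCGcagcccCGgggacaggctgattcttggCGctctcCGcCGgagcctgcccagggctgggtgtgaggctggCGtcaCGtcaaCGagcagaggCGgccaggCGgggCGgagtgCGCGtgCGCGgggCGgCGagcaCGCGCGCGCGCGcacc

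The Sirpb1a window held 1 CG and was 36.4% G or C, the Ptpn6 window held 7 at 63.2%, and the Cd47 window held 30 at 73.2%. Across 32851 promoter windows of the same length the median number of CG was 6, and 92.1% held at least 1. The share of windows with fewer CG was 7.9% for Sirpb1a, 53.7% for Ptpn6 and 94.1% for Cd47. The letters GAGGAA, 1 form of the site of the myeloid factor PU.1, were the only form searched, on both strands. They occurred 0 times in each of the 3 windows, against 23.2% of all windows with at least 1 match. Cd47 has 2 starts in the RefSeq table, of which the one listed first is shown. Sirpa is named only.

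The values are linear signal intensities, which the submitters scaled to a common target. Array medians lay between 51.7 and 87.3, and samples of 1 population correlated at 0.832 to 0.967 across probe sets, against 0.807 to 0.909 between populations. The number of arrays limits the precision. Bacterial control probe sets to which no RNA is matched reached 45.2 on U74A, 122.7 on U74B and 148.7 on U74C, and a signal at or under that value is called not above background here. On U74A the Gapdh control probes read higher at the 3′ than at the 5′ end by a factor of 3.34 and 3.58 in IKDC, 6.0 and 3.19 in PDC, and 4.74 and 4.13 in cDC. In log2 differences 16 was added to each signal, which understates the change of low signals, and each difference is estimate ± SE. In these bulk samples, fewer cells of a type and less RNA per cell cannot be told apart.

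Sirpb1a, which encodes an activating SIRP beta receptor, had a high signal in cDC only. Its single probe set read 23.0 and 89.3 in IKDC, 143.8 and 105.7 in PDC, and 6157.9 and 5622 in cDC. All 4 IKDC and PDC signals lay under the 148.7 that controls reached on U74C, and both cDC signals were far above it. The population means were 56.1 ± 46.9 in IKDC, 125 ± 26.9 in PDC and 5890 ± 379 in cDC (SD, n = 2 each). Against the control signal, Sirpb1a was at least 39.6-fold lower in IKDC than in cDC, and at least 39.6-fold lower in PDC than in cDC. The fitted log2 differences were -6.52 ± 0.46 for IKDC versus cDC and -5.40 ± 0.46 for PDC versus cDC. IKDC and PDC signals did not overlap (-1.12 ± 0.46 log2 units), but with all 4 not above background no fold is given, and the difference was -0.41 without IKDC replicate 1 and -1.84 without IKDC replicate 2. The probe set has no accession in the annotation. Sirpb1b and Sirpb1c, close paralogs of Sirpb1a, were on no probe set used here under their own symbols, so signal from them cannot be told apart from that of Sirpb1a.

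Sirpa, encoding the inhibitory receptor SIRP alpha, was graded over the 3 populations. The brightest of its probe sets read 16 and 23.1 in IKDC, 123 and 235.6 in PDC, and 488.3 and 613.3 in cDC. Both IKDC signals were not above the 45.2 of the U74A controls, both PDC signals were above it, and both cDC signals were higher still, with no overlap between any pair of populations. The means were 19.6 ± 5.02 in IKDC, 179 ± 79.6 in PDC and 551 ± 88.4 in cDC (SD, n = 2 each). Sirpa was at least 12.1-fold lower in IKDC than in cDC (-3.99 ± 0.36 log2 units) and at least 3.77-fold lower in IKDC than in PDC (-2.40 ± 0.36). PDC versus cDC gave -1.59 ± 0.36 log2 units. That estimate was -1.16 without PDC replicate 1 and -2.02 without PDC replicate 2.

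The other 2 Sirpa probe sets were made from a common sequence record and were dimmer. The first of them, whose suffix marks probes shared within a group of related sequences, read 9.1 and 11.8 in IKDC, 18.3 and 105 in PDC, and 105.2 and 154.6 in cDC. IKDC was again lowest and cDC highest, but the higher PDC signal came within 0.2 of the lower cDC signal. The difference was at least 2.82-fold between IKDC and cDC. Its log2 differences were -2.44 ± 0.58 for IKDC versus cDC, -1.16 ± 0.58 for PDC versus cDC and -1.29 ± 0.58 for IKDC versus PDC. The other stayed under 60 on all arrays and was left out of the fit. It read 4.9 and 11.2 in IKDC, 7.0 and 35.8 in PDC, and 23.3 and 8.6 in cDC, all not above background, and so gives no order of the populations.

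Cd47, the ligand of SIRP alpha, was bright in every sample. Its brighter probe set read 4434.2 and 4531.1 in IKDC, 4470.9 and 7170.6 in PDC, and 3600.7 and 4279.8 in cDC. The IKDC and PDC signals all exceeded both cDC signals, by a small margin for IKDC, and IKDC and PDC overlapped. The means were 4483 ± 68.5 in IKDC, 5821 ± 1909 in PDC and 3940 ± 480.2 in cDC (SD, n = 2 each). The log2 differences were 0.19 ± 0.30 for IKDC versus cDC, 0.53 ± 0.30 for PDC versus cDC and -0.34 ± 0.30 for IKDC versus PDC. The estimates with PDC rested on PDC replicate 2. Without it PDC versus cDC was 0.19 and IKDC versus PDC was 0.00, and without PDC replicate 1 they were 0.87 and -0.68.

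The second Cd47 probe set showed a wider gap to cDC. It was dimmer and read 566.4 and 725.1 in IKDC, 399.4 and 892.6 in PDC, and 304.2 and 283.9 in cDC. Every IKDC and PDC signal again exceeded both cDC signals. The log2 differences were 1.08 ± 0.36 for IKDC versus cDC, 0.99 ± 0.36 for PDC versus cDC and 0.10 ± 0.36 for IKDC versus PDC. Both probe sets kept a positive difference from cDC after quantile normalization and after median centring, at 0.12 to 1.27 log2 units for IKDC and 0.37 to 1.04 for PDC. The sign between IKDC and PDC differed between the 2 probe sets.

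Ptpn6, encoding the phosphatase SHP-1, was lowest in IKDC. Its only probe set read 518.5 and 378 in IKDC, 1051.8 and 1645.3 in PDC, and 829.7 and 1116.2 in cDC. Both IKDC signals were below all others, while PDC and cDC overlapped. The means were 448 ± 99.3 in IKDC, 1349 ± 420 in PDC and 973 ± 203 in cDC (SD, n = 2 each), so the IKDC mean was 46.1% of the cDC mean. The log2 differences were -1.09 ± 0.31 for IKDC versus cDC and -1.54 ± 0.31 for IKDC versus PDC. PDC versus cDC was 0.44 ± 0.31, or 0.76 without PDC replicate 1 and 0.13 without PDC replicate 2. The suffix of the probe set marks probes that match more than 1 transcript, so a related transcript can add to this signal.

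**Figure D1:**
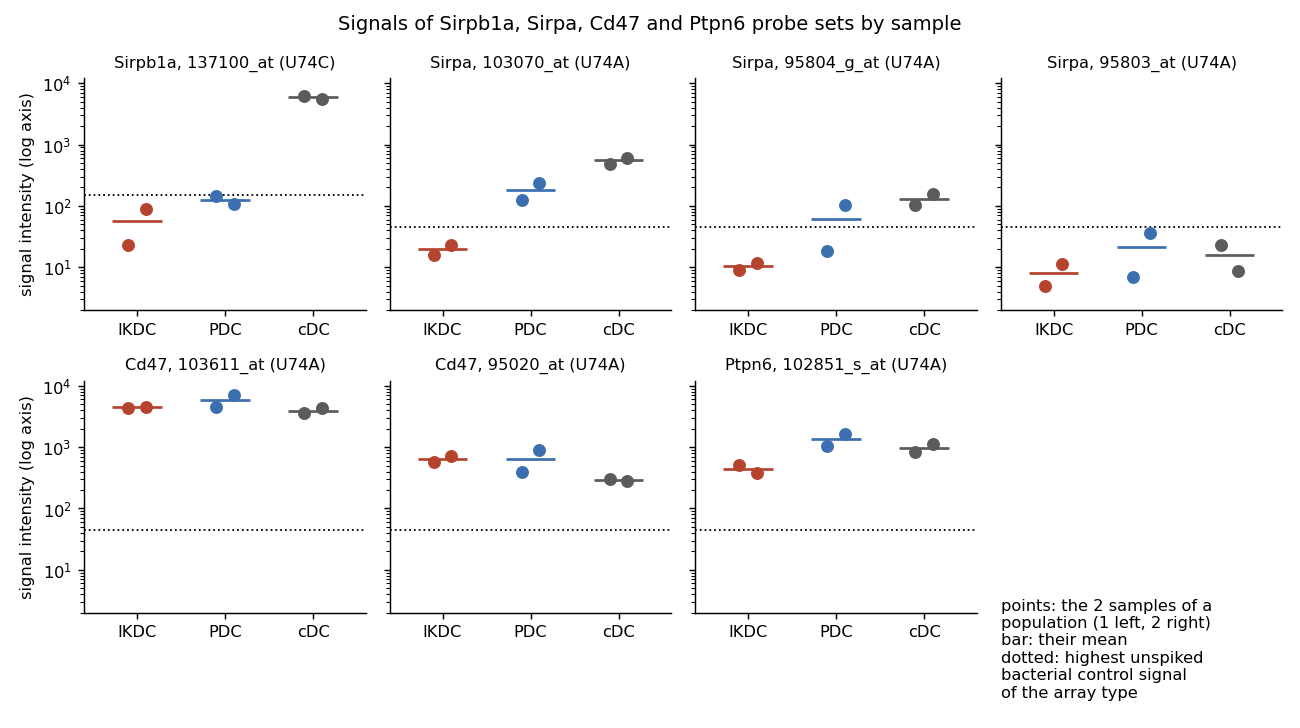
Signal intensity (log axis) of the 7 probe sets in the 2 samples of IKDC, PDC and cDC, with bars at the means and a dotted line at the highest unspiked control signal of the array type. Sirpb1a is above the line in cDC only, the brightest Sirpa probe set steps up over IKDC, PDC and cDC, the brighter Cd47 probe set is at 3600.7 or more in every sample, and Ptpn6 is lowest in the IKDC samples.

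Of the 7 probe sets 6 passed the filter, which asked 2 of the 6 arrays to reach a signal of 60. Between IKDC and cDC, 2 of these 6 were higher and 4 lower without overlap of the samples, where 51.6% of all probe sets fitted did not overlap, 24.9% higher and 26.7% lower. Between PDC and cDC, 2 were higher, 3 lower and 1 overlapped, against a background of 41.3% (20.5% higher and 20.8% lower), and between IKDC and PDC 4 were lower and 2 overlapped, against 43.7% (21.7% higher and 21.9% lower). Nothing is read from these counts, since the genes were chosen with the values known. The comparisons share samples. In the 3 fitted U74A genes PDC replicate 2 was above PDC replicate 1, by 1.92 times for Sirpa, 1.60 times for Cd47 (brightest probe sets) and 1.56 times for Ptpn6, and the Gapdh ratio of PDC replicate 2 was the lower of that pair. Sirpb1a on U74C ran the other way, with PDC replicate 1 at 1.36 times PDC replicate 2, but both of these signals were not above background. The part of RNA quality in these gaps was not tested.

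**Figure D2:**
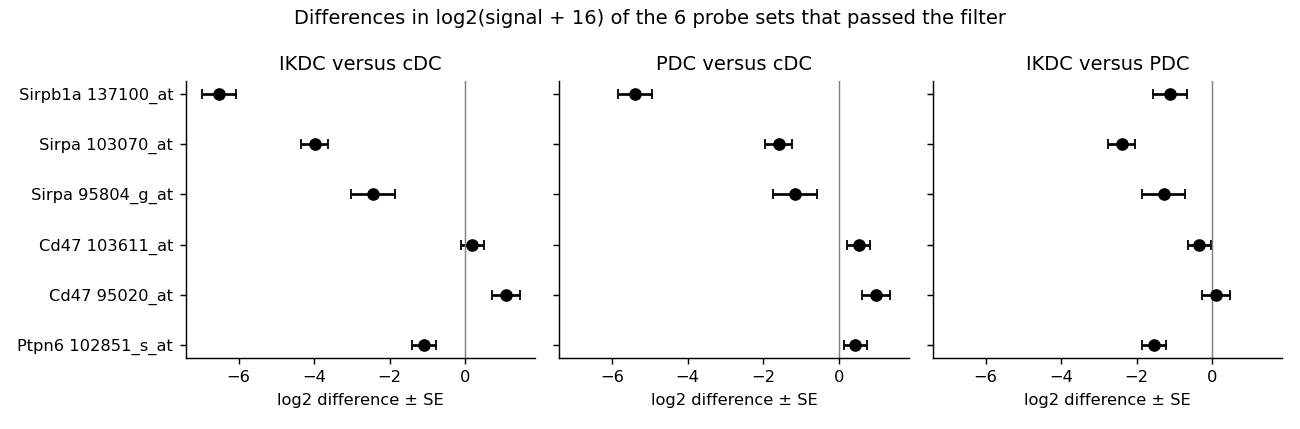
Log2 difference ± SE of the 6 probe sets that passed the filter, for IKDC versus cDC, PDC versus cDC and IKDC versus PDC, where a negative value means lower in the population named first. Sirpb1a lies farthest from 0 in both comparisons with cDC, at -6.52 and -5.40, and the Cd47 probe sets lie at or above 0 there.

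The summed monocyte and macrophage markers were lowest in IKDC and highest in cDC, the order of the brightest Sirpa probe set. The sums of CD8 alpha positive and of general conventional dendritic cell markers had the same order. Neutrophil markers were also highest in cDC, with IKDC and PDC overlapping. The other marker lists ran differently. Of 12 measured monocyte and macrophage markers, 10 were lower and 0 higher in IKDC than in cDC by limma, and 7 were lower and 0 higher in PDC than in cDC. Over all 12193 genes 7.57% were called between IKDC and cDC (3.5% higher and 4.07% lower) and 4.99% between PDC and cDC (2.25% higher and 2.75% lower). The summed signal of the 12 markers was 946 to 1035 in IKDC, 3139 to 3452 in PDC and 9643 to 10280 in cDC. Both signals were not above background for 5 of these 12 markers in IKDC, 2 in PDC and 0 in cDC. Csf1r, the receptor of macrophage colony stimulating factor, read 75.3 and 62.3 in IKDC, 158.4 and 107.2 in PDC, and 1406 and 1237.3 in cDC. C1qa, a complement subunit of macrophages, read 15.9 and 16.8 in IKDC, 15.9 and 16.3 in PDC, and 312.1 and 394.3 in cDC. A marker that, like C1qa, reached the filter in cDC alone could hardly come out level, so nothing is read from the counts of lower markers. Whether macrophages or monocytes in the cDC samples carried part of the Sirpb1a or Sirpa signal was not tested.

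Markers of the conventional dendritic cell subsets did not follow 1 order. For 6 measured markers of the SIRP alpha positive subset the summed signal was 1199 to 1404 in IKDC, 3766 to 4344 in PDC and 2094 to 2338 in cDC. By limma 0 of these 6 were higher and 1 was lower in IKDC than in cDC. Between PDC and cDC, 1 was higher and 1 lower in PDC. Clec10a, a lectin gene of that list, gave most of the PDC sum, with 2516.8 and 2802.5. For 6 markers of the CD8 alpha positive subset, which is known for low SIRP alpha, the sums were 704 to 754 in IKDC, 7668 to 9018 in PDC and 13000 to 13120 in cDC. By limma 6 of these 6 were lower in IKDC than in cDC, and 4 were lower in PDC than in cDC. The limit from the filter holds for the counts of every marker list. NK cell markers summed highest in IKDC, plasmacytoid markers in PDC and general conventional dendritic cell markers in cDC. By limma all 6 measured NK cell markers were higher in IKDC than in cDC, and all 6 plasmacytoid markers were higher in PDC than in cDC. The sum of 7 general conventional dendritic cell markers was 3052 to 3398 in IKDC, 10630 to 12540 in PDC and 26400 to 26710 in cDC. Of these 7, only 4 were lower and 0 higher in IKDC than in cDC, and 3 were lower and 0 higher in PDC than in cDC. Erythroid markers summed to 14210 to 16770 in IKDC and 9365 to 22260 in PDC, against 672 to 1661 in cDC. Neutrophil markers (5 measured) summed to 261 to 311 in IKDC, 212 to 771 in PDC and 795 to 1656 in cDC. B cell markers (4) summed to 625 to 1746 in IKDC, 441 to 1046 in PDC and 407 to 632 in cDC, and T cell markers (3) to 604 to 928 in IKDC, 330 to 394 in PDC and 93.8 to 225 in cDC. Red cells are rich in CD47, and the part of erythroid RNA in the Cd47 difference from cDC was not tested.

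**Figure D3:**
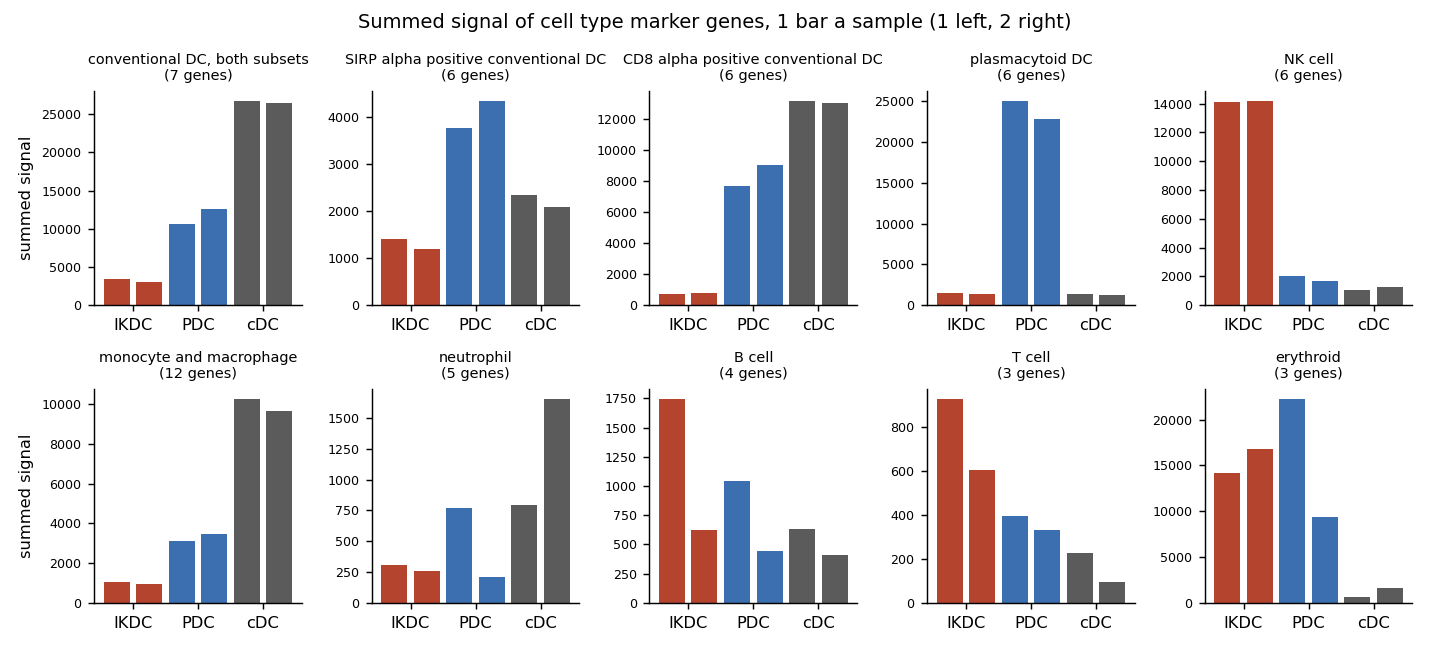
Summed signal of each marker list, with 1 bar for each sample of IKDC, PDC and cDC and a separate linear axis from 0 for each list. The monocyte and macrophage sum steps up over IKDC, PDC and cDC, as do the CD8 alpha positive and the general conventional dendritic cell sums. The erythroid sum is at 9365 or more in all IKDC and PDC samples and at 1661 or less in cDC.

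The genes whose pattern over the 6 samples was most like that of each gene were ranked among 12192 others by Pearson correlation of log2(signal + 16). With 3 populations of 2 samples such values run high, so they are a description only. Closest to Sirpb1a were Pram1 (r = 0.999), an adaptor gene of myeloid cells, Adamtsl4 (0.998), Ifih1 (0.997), the gene of the RNA sensor MDA5, Cdk14 (0.997) and Pde6b (0.996). Pram1 read 6.2 and 17.6 in IKDC, 31 and 19.4 in PDC, and 302.7 and 276 in cDC, with the IKDC and PDC signals not above background. Closest to Sirpa were Cfp (0.997), which encodes the complement regulator properdin, the lipid kinase gene Pip4k2a (0.997), Tctex1d2 (0.996), BC028528 (0.993) and App (0.991). Pip4k2a read 400.6 and 435.5 in IKDC, 971.9 and 1283.5 in PDC, and 1835.8 and 1860.8 in cDC, the same order as Sirpa and with every signal above background.

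The patterns of Cd47 and Ptpn6 were shared with different genes. Closest to the brighter Cd47 probe set were Arhgap21 (r = 0.982), Tppp (0.975), Zhx1 (0.974), Gpm6a (0.972) and Antxr2 (0.967), and all 5 had their highest signal in PDC replicate 2. Closest to Ptpn6 were Spata45 (0.997), the phosphatase gene Ppm1m (0.994), Stard9 (0.992), Mfsd3 (0.991) and Tmem86a (0.990). Correlations over 0.95 were reached by 161 genes for Sirpb1a, 106 for Sirpa, 72 for Ptpn6 and 23 for Cd47. Among the 4 genes, Sirpa correlated at 0.866 with Sirpb1a, at 0.746 with Ptpn6 and at -0.06 with Cd47 over the 6 samples.

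**Figure D4:**
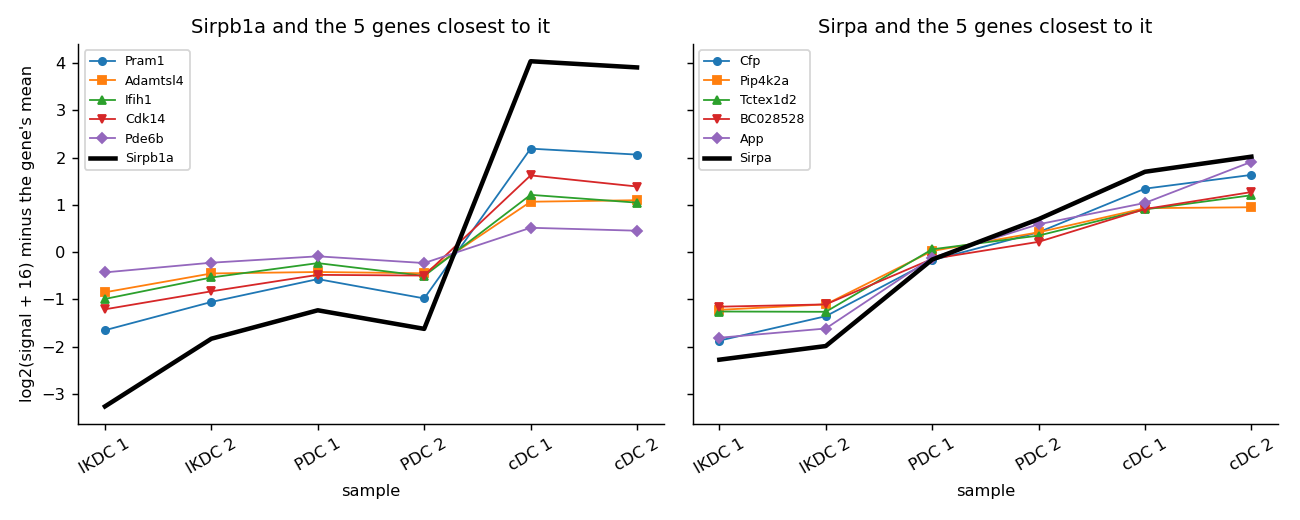
Log2(signal + 16) minus each gene's mean, over the 6 samples, for Sirpb1a and Sirpa (thick black lines) and the 5 genes closest to each. The left set lies below its mean in all IKDC and PDC samples and above it in cDC, and the right set steps up from IKDC through PDC to cDC.

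Other genes of SIRP and SHP-1 signalling were taken from 6 lists of 82 names beside the 4 genes, of which 70 had a probe set and 60 passed the filter. A gene that passed it through 1 bright population alone could hardly stay level, so counts are over measured genes only. Among the genes called, Pram1 and Clec4a2 were such genes, with a signal of 60 reached in cDC alone. In IKDC versus cDC 18 of the 60 passed at a limma adjusted p of 0.05, 7 higher and 11 lower, or 30% where 7.57% of all 12193 genes tested were called. Their median log2 difference was -0.44, against 0.01 over all genes. Leaving out Pram1 and Clec4a2, 16 calls remained, 7 higher and 9 lower. The lists were written with earlier results of these data known. In every comparison the share of listed genes called is therefore a description only.

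Of 13 adaptors and phosphatases between IKDC and cDC, 1 rose and 3 fell, with a median of -0.15. Skap2, an adaptor that binds the SIRP alpha complex, read 322.1 and 292.5 in IKDC, against 2062.9 and 2889.6 in cDC, a log2 difference of -2.93 ± 0.31 (limma adjusted p = 0.000235). Its partner Fyb fell by 1.02 ± 0.24 log2 units (limma adjusted p = 0.0404). The other tested Fyb probe set did not pass, and the call was lost with the mean of the Fyb probe sets (limma adjusted p = 0.0664). Pram1 was at least 2.36-fold lower, but reached the filter in cDC alone, so its call is no support for a difference. Dok2, an adaptor that dampens tyrosine kinase signals, rose to 2064 ± 76.4 in IKDC, against 461 ± 83.3 in cDC. Tyrobp, the adaptor SIRP beta 1 needs, did not pass, at 2942 ± 15.7 in IKDC and 2696 ± 1172 in cDC. Ptpn11, encoding SHP-2, did not pass either, at 1551 ± 170 in IKDC and 1276 ± 137 in cDC.

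Among 10 Src family kinases and their regulators, 1 rose and 2 fell in IKDC, with a median of 0.22. Fgr, a kinase of myeloid cells, averaged 565 ± 155 in IKDC, against 3078 ± 8.49 in cDC (SD, n = 2), a log2 difference of -2.44 ± 0.33 (limma adjusted p = 0.00134). Fyn, a kinase of lymphocytes, went the other way at 1794 ± 223 in IKDC, against 222 ± 26.1 in cDC, a log2 difference of 2.92 ± 0.33 (limma adjusted p = 0.000302). Its other tested probe set did not pass. Src fell by 1.47 ± 0.36 log2 units (limma adjusted p = 0.0448). Of 16 other inhibitory receptors that recruit SHP-1, 3 rose and 4 fell, with a median of -1.04. Pirb, a receptor for MHC class I, averaged 141 ± 11.5 in IKDC, against 2575 ± 296 in cDC, a log2 difference of -4.04 ± 0.28 (limma adjusted p = 3.08e-05). The suffix of the Pirb probe set, like that of Dok2, marks a family of related sequences. Related transcripts can therefore add to the Pirb signal in every comparison. Cd300a, a receptor for membrane lipids, stood at 410 ± 4.53 in IKDC and 3195 ± 277 in cDC. Both NK receptor genes of the list rose, Klrg1 by 2.28 ± 0.40 and Klrc1 by 1.76 ± 0.33 log2 units.

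Of 14 kinases and adaptors that SHP-1 restrains, 2 rose and 1 fell, with a median of 0.16. Zap70, the kinase of T and NK cell receptors, stood at 1179 ± 188 in IKDC and 115 ± 78.1 in cDC, Jak1 rose by 1.69 ± 0.34 log2 units, and Btk fell by 1.46 ± 0.35. Syk did not pass, at 874 ± 101 in IKDC and 963 ± 89.4 in cDC. Of 6 phagocytic receptors 0 rose and 1 fell by limma, with 3 at an unadjusted p under 0.05 and a median of -1.0. That gene was the Fc receptor gene Fcgr1, at least 3.07-fold lower. Neither of the 2 measured further ligands of CD47 and SIRP alpha, Thbs2 and Sftpa1, passed in any comparison, and neither had an unadjusted p under 0.05.

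Of the 18 calls, those of Cd300a, Dok2, Fgr, Fyn, Pirb, Skap2 and Zap70 held with each sample left out in turn. The other 11 did not. Without IKDC replicate 1, Btk, Cd72, Fcgr1, Fyb, Klrc1, Klrg1 and Src reached limma adjusted p of 0.0517 to 0.255. Without IKDC replicate 2, Btk, Cd72, Clec4a2, Fcgr1, Fyb, Jak1, Klrc1, Klrg1, Siglecg and Src reached 0.0534 to 0.266. Without cDC replicate 1, Btk, Cd72, Clec4a2, Fcgr1, Fyb, Jak1, Klrc1, Pram1, Siglecg and Src reached 0.0603 to 0.273. Without cDC replicate 2, Btk, Clec4a2, Fcgr1, Fyb, Jak1, Klrc1, Klrg1, Pram1, Siglecg and Src reached 0.0504 to 0.206, and Fyb was also lost without PDC replicate 1 (0.0514) or PDC replicate 2 (0.0566).

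In PDC versus cDC, 9 of the 60 genes passed by limma, 3 higher and 6 lower, or 15% where 4.99% of all genes were called, with a median of -0.22 against 0.00 over all genes. Blnk, an adaptor of B cell receptor signalling that plasmacytoid cells also use, rose to 1150 ± 347 in PDC, against 40 ± 8.2 in cDC, a log2 difference of 4.35 ± 0.41 (limma adjusted p = 0.000177). Fyn stood at 1947 ± 864 in PDC and 222 ± 26.1 in cDC, and the inhibitory collagen receptor gene Lair1 at 813 ± 210 in PDC and 116 ± 91.7 in cDC. Lcp2, encoding the adaptor SLP-76, read 100.3 and 63.9 in PDC, against 654.4 and 664.8 in cDC, a log2 difference of -2.81 ± 0.29 (limma adjusted p = 0.000289). Itgax, encoding CD11c, fell by 2.76 ± 0.31, Cd22, a sialic acid binding receptor gene of B cells, by 2.28 ± 0.39 and Cd300a by 1.43 ± 0.22 log2 units. Pram1 was at least 2.36-fold lower and Clec4a2, the gene of the inhibitory lectin DCIR, at least 3.49-fold lower, and both reached the filter in cDC alone. Leaving them out, 7 calls remained, 3 higher and 4 lower.

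By list, PDC versus cDC gave 0 higher and 1 lower of 13 adaptors and phosphatases, 1 and 0 of 10 Src family genes, 1 and 3 of 16 inhibitory receptors, 1 and 1 of 14 kinases and adaptors, and 0 and 1 of 6 phagocytic receptors. In the same order, the unadjusted limma p was under 0.05 for 7, 2, 7, 6 and 6 genes. The list medians were -0.56, -0.07, -0.08, 0.06 and -1.2 log2 units. Pirb, which set IKDC apart, stood at 3274 ± 775 in PDC and 2575 ± 296 in cDC. Tyrobp had 6108 ± 715 in PDC and 2696 ± 1172 in cDC and did not pass (1.24 ± 0.32 log2 units, limma adjusted p = 0.062). It passed without cDC replicate 1 (limma adjusted p = 0.026), with the filter at 200 (0.0403), with the mean of a gene's probe sets (0.0458) and with the replicate number as a block (0.00965). The calls of Blnk, Fyn, Itgax and Lcp2 held with each sample left out. Without cDC replicate 1, Cd300a, Clec4a2, Lair1 and Pram1 reached limma adjusted p of 0.0531 to 0.14, without cDC replicate 2 Cd22, Clec4a2 and Pram1 reached 0.0993 to 0.14, and without PDC replicate 2 Lair1 and Pram1 reached 0.0569 to 0.0854.

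Between IKDC and PDC 17 of the 60 genes passed by limma, 9 higher and 8 lower in IKDC, or 28.3% where 5.88% of all genes were called (2.71% higher and 3.17% lower), with a median of -0.02 against 0.01 over all genes. Pirb differed by -4.37 ± 0.28 log2 units (limma adjusted p = 1.74e-05), Blnk by -3.76 ± 0.41, Fgr by -2.52 ± 0.33 and Skap2 by -2.11 ± 0.31, and Lair1 was at least 6.51-fold lower in IKDC. Zap70 differed by 2.73 ± 0.40, Lcp2 by 2.28 ± 0.29 (453 ± 3.47 in IKDC and 82.1 ± 25.7 in PDC), Itgax by 2.13 ± 0.31 and Dok2 by 1.94 ± 0.24. By list, 1 was higher and 2 lower of 13 adaptors and phosphatases, 1 and 1 of 10 Src family genes, 2 and 4 of 16 inhibitory receptors, 3 and 1 of 14 kinases and adaptors, and 2 and 0 of 6 phagocytic receptors. Ptpn11 did not pass here either (0.98 ± 0.26 log2 units, limma adjusted p = 0.0766), but its other tested probe set passed, also higher in IKDC. Ptpn11 passed with the filter at 200 (limma adjusted p = 0.0485) and with the mean of its probe sets (0.0371). The calls of Pirb, Blnk, Fgr, Skap2, Lair1, Zap70, Lcp2, Itgax and Dok2, and that of Cd300a, which differed by -1.48 ± 0.22, held with each sample left out.

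The other 7 calls between IKDC and PDC were each lost without at least 1 sample. They were Klrg1 (2.10 ± 0.40), Jak1 (1.83 ± 0.34), the integrin gene Itgb2 (1.81 ± 0.38), Klrc1 (1.77 ± 0.33), the CD45 gene Ptprc (1.67 ± 0.36), Fyb (-1.16 ± 0.24) and Siglecg (-2.42 ± 0.56). The other tested probe sets of Fyb and Ptprc did not pass. Without IKDC replicate 1, Fyb, Itgb2, Klrc1, Klrg1 and Ptprc reached limma adjusted p of 0.075 to 0.2, and without IKDC replicate 2 all 7 reached 0.0947 to 0.142. Without PDC replicate 1, Fyb, Itgb2, Ptprc and Siglecg reached 0.0733 to 0.156, and without PDC replicate 2 Fyb, Jak1 and Siglecg reached 0.0771 to 0.134. Siglecg was also lost without cDC replicate 1 (0.0887) or cDC replicate 2 (0.0907).

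**Figure D5:**
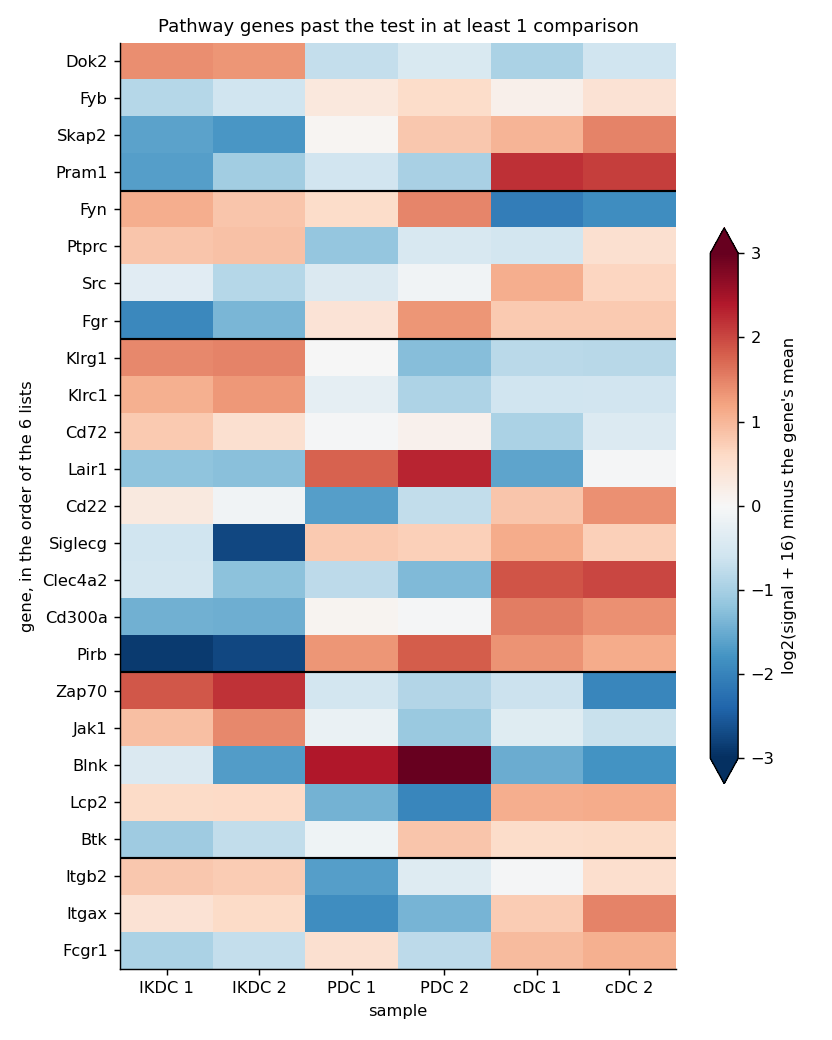
Log2(signal + 16) minus the gene's mean in each of the 6 samples, for the pathway genes that passed limma in at least 1 comparison, grouped by list with black lines between lists. Dok2, Zap70, Klrg1 and Klrc1 are red in both IKDC samples, Blnk and Lair1 in both PDC samples, and Pram1 and Clec4a2 in both cDC samples.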

How the data were processed

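Per the labels, total RNA was amplified, labelled with biotin and hybridised. The authors deposited signal intensities that GCOS 1.1.1 made at default settings and scaled to a target of 150 per array, and the submitters' processing notes name MAS5. Amplification favours 3′ ends, and scaling makes every difference relative to an array's mean level. Each array type got its own model of the 3 populations on log2(signal + 16), by lmFit and eBayes of limma 3.58.1 (R 4.3.3) with an intensity trend. The model took the 23285 of 36701 probe sets that reached a signal of 60 on at least 2 arrays. Control probe sets (198) were left out. P-values were adjusted by Benjamini-Hochberg across the array types together, and 0.05 was the threshold. The brightest fitted probe set on average stood for each of 12193 genes. Symbols came from the platform annotation, updated to GRCm38.p6 gene names: 29131 probe sets had 1 symbol, 724 several and 6846 none, and those with several named no gene. Where both signals of a group were not above the highest unspiked control of the array type, folds are bounds against that control. The 4 genes and the lists were chosen with earlier results of these data known. The text names all probe sets of the 4 genes, up to 4 genes per list and comparison with the smallest adjusted p (or the 2 brightest), the 5 genes closest in pattern, and markers. Cd72, Siglecg, Tyrobp, Ptpn11 and Syk, Clec4a2 between IKDC and cDC, Klrg1 between IKDC and PDC, and Pirb between PDC and cDC were named after their values were seen. The fit was tested on simulated data. Alternatives covered pseudocounts of 1 and 64, filters, normalization, the variance model, the probe set of a gene, a replicate block and leaving out each sample. All columns of the 3 tables were used.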

Additional observations from a re-analysis of the deposited data

How the results depend on the processing

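With 2 samples per population and 3 residual degrees of freedom, the calls depended most on single samples. With each sample left out in turn (a lone sample is then assumed to vary like the others), probe sets called ranged over 593 to 1656 between IKDC and cDC (1305 with all samples), 327 to 719 between PDC and cDC (849) and 493 to 869 between IKDC and PDC (1036), and pathway genes called over 8 to 21 (18), 6 to 10 (9) and 10 to 17 (17). Without the intensity trend 11 pathway genes passed between IKDC and PDC, and Cd300a was among those lost (limma adjusted p = 0.0534). The log2 differences of the 4 genes ranged with a sample left out as follows. IKDC versus cDC gave -7.24 to -5.81 for Sirpb1a. PDC versus cDC gave -2.02 to -1.16 for Sirpa, 0.19 to 0.87 for Cd47 and 0.13 to 0.76 for Ptpn6. IKDC versus PDC gave -1.84 to -0.41 for Sirpb1a, -2.83 to -1.97 for Sirpa, -0.68 to 0.00 for Cd47 and -1.86 to -1.22 for Ptpn6. Sirpa moved with the pseudocount, since its IKDC signals were low: with 1 it was -4.76 for IKDC versus cDC and -3.08 for IKDC versus PDC, and with 64 it was -2.87 and -1.50. Sirpb1a was -5.69 for IKDC versus cDC with 64. The dimmer Sirpa probe set gave -2.44, -1.16 and -1.29 for IKDC versus cDC, PDC versus cDC and IKDC versus PDC, and the dimmer Cd47 probe set 1.08, 0.99 and 0.10; the cause was not tested. Median centring moved the median of all probe sets between IKDC and cDC to 0.107, against -0.013 as deposited. With the replicate number as a block, 1650, 1055 and 1223 probe sets and 19, 13 and 21 pathway genes passed in the 3 comparisons, and Src was lost between IKDC and cDC (limma adjusted p = 0.0505). The deviations of samples with 1 number correlated at r = -0.086 to 0.235, highest for PDC and cDC on U74A. Whether samples with 1 number share a preparation was not tested. Signals near the control level limit Sirpb1a in IKDC and PDC and Sirpa in IKDC to bounds.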
